A study of Mus musculus with 12 samples.

Results

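Domains of trimethylated histone H3 lysine 27 (H3K27me3) on mouse autosomes whose continuity differed between epidermis lacking Utx and control epidermis are described here. A fused domain is a Utx-cKO domain on chromosomes 1 to 19 that overlapped 2 or more WT domains, and a split domain is a WT domain that overlapped 2 or more Utx-cKO domains, with an overlap of at least 1 bp. Members were thus chosen by the peak borders of both lists, which are measured values, so their number, gap and width are descriptions. These criteria gave 278 fused and 335 split domains, 613 of the 16740 peaks in both lists. The study used CUT&RUN, a method where antibody-tethered nuclease cuts out the chromatin that carries a mark, on dissociated epidermal cells of female mice. The Utx-cKO animals (3) carried Krt14-Cre and Utx fl/fl, and the WT controls (3) carried Utx fl/fl without Cre, so both groups had the floxed alleles. Each animal gave an H3K27me3 and an IgG library, 12 libraries in all. Krt14-Cre acts in cells with a keratin-14 history, and other cells of the suspension keep the gene. One peak list per genotype was analysed, each called on data merged over its animals. No value therefore has a replicate error, no test was possible, and all comparisons are descriptions of these lists. The IgG libraries were not analysed here.

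H3K27me3 is laid down by Polycomb repressive complex 2 and marks silent genes, often in broad domains over CpG-rich promoters of developmental regulators. UTX, encoded by Kdm6a on the X chromosome, removes methyl groups from H3K27 and is a subunit of the COMPASS-like MLL3/MLL4 complexes that also acts without its enzymatic activity. In epidermis, Polycomb domains cover genes of other lineages, while active promoters such as those of keratin genes carry little of the mark. Of 10 keratinocyte marker genes (basal Krt5, Krt14, Trp63, Itga6 and Itgb4, suprabasal Krt1, Krt10, Lor, Ivl and Flg), 0 overlapped a domain of either list. Of 17 housekeeping genes, 0 did so as well. Domains were found over 3 melanocyte markers and 4 immune markers in each list. In a suspension of mixed cells, a gap in some cells and a shallower signal in all of them cannot be told apart.

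A gap is the stretch between consecutive domains of one genotype that lie under 1 domain of the other. The promoter sequences below lie wholly inside such gaps and belong to the domains with the highest total signal among those with a tabulated promoter in a gap. They are examples and do not stand for the gaps in general. An annotated protein-coding start lay in 31 of 301 fused gaps (10.3%) and 42 of 366 split gaps (11.5%). No protein-coding gene lay in 48.2% and 52.7% of them. Each is 300 bases of RefSeq sequence of GRCm38.p6 from 250 bases before to 50 after the annotated start, 5′ to 3′, with every CG in capitals. In the fused class, Sox2 (chr3:34649745-34650044, plus strand, 27 CG), Lhx2 (chr2:38351058-38351357, plus strand, 29 CG) and Mfsd6l (chr11:68555936-68556235, plus strand, 18 CG) had a tabulated promoter in a WT gap.
Sox2: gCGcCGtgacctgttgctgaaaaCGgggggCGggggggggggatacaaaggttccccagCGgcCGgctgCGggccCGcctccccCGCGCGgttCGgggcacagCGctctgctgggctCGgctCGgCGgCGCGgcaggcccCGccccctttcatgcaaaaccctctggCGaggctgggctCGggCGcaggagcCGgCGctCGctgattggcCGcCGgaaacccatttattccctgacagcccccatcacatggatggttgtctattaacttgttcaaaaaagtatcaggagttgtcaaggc
Lhx2: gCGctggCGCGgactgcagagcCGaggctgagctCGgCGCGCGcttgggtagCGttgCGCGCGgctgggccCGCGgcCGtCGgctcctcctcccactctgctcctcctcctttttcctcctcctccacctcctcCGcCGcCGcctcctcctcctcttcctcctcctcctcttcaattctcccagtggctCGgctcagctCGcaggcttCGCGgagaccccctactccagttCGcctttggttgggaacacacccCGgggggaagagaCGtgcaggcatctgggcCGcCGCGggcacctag
Mfsd6l: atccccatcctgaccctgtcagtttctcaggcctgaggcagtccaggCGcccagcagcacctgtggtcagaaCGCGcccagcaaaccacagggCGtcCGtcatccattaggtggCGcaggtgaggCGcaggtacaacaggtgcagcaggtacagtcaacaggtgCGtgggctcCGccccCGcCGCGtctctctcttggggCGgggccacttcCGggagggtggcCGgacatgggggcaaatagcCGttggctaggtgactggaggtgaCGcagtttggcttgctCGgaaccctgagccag
In the split class, Neurog2 (chr3:127632886-127633185, plus strand, 10 CG), Foxl2 (chr9:98955357-98955656, plus strand, 27 CG) and Sall1 (chr8:89042813-89043112, minus strand, 39 CG) had one in a Utx-cKO gap.
Neurog2: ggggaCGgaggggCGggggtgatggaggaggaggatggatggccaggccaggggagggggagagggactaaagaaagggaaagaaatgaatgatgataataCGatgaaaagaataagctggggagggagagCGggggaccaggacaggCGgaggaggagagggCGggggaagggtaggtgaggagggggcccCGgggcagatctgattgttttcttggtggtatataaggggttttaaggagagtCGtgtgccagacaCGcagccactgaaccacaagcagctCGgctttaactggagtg
Foxl2: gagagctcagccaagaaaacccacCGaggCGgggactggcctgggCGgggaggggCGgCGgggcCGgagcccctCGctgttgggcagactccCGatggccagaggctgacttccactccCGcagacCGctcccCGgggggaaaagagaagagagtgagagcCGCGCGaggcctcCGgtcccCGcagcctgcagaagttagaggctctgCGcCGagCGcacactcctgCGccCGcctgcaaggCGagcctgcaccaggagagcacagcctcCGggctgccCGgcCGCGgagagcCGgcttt
Sall1: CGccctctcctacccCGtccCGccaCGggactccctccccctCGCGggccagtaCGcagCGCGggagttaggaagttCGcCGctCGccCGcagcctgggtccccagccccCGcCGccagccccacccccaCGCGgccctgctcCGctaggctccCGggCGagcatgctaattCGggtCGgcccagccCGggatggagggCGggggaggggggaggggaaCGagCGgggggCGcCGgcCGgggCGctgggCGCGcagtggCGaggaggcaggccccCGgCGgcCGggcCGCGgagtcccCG
The ratio of observed to expected CG, given the bases of each promoter, was 0.819 for Sox2, 0.835 for Lhx2, 0.575 for Mfsd6l, 0.570 for Neurog2, 0.708 for Foxl2 and 0.819 for Sall1. Only 70.2% of the 57 genes with an end in a fused gap and 78.7% of the 47 in a split gap had a tabulated promoter, against 79.6% of all autosomal protein-coding genes. A CpG comparison would be incomplete for both sets, more so for the fused one, and none is drawn. Counts of starts in gaps carry the same limit.

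Sox2, a transcription factor of pluripotent and neural cells, lay in 1 Utx-cKO domain of 54100 bp with a maximum signal of 83.8, which ranked at percentile 99.7 of total signal in its list. In WT the same stretch was 2 domains, at maxima of 63.1 and 81.2 and percentiles 95.3 and 99.0, and the 2000 bp between them (chr3:34648901-34650900) held the Sox2 start. The domain on the right reached further in WT than in Utx-cKO. At Neurog2, a proneural transcription factor, the gap lay in the Utx-cKO list instead. The 2 Utx-cKO domains there had maxima of 75.7 and 79.2 and percentiles 95.6 and 97.3. They lay 1700 bp apart (chr3:127632551-127634250) around the start. The WT domain was 41150 bp wide with a maximum of 81.2 and percentile 99.2. No spacing in the WT list was under 1750 bp, so a gap as short as this could not be seen in WT. The maximum is the highest coverage in a domain, on a scale that the sources used here do not give, so signal is compared within a list only.

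**Figure D1:**
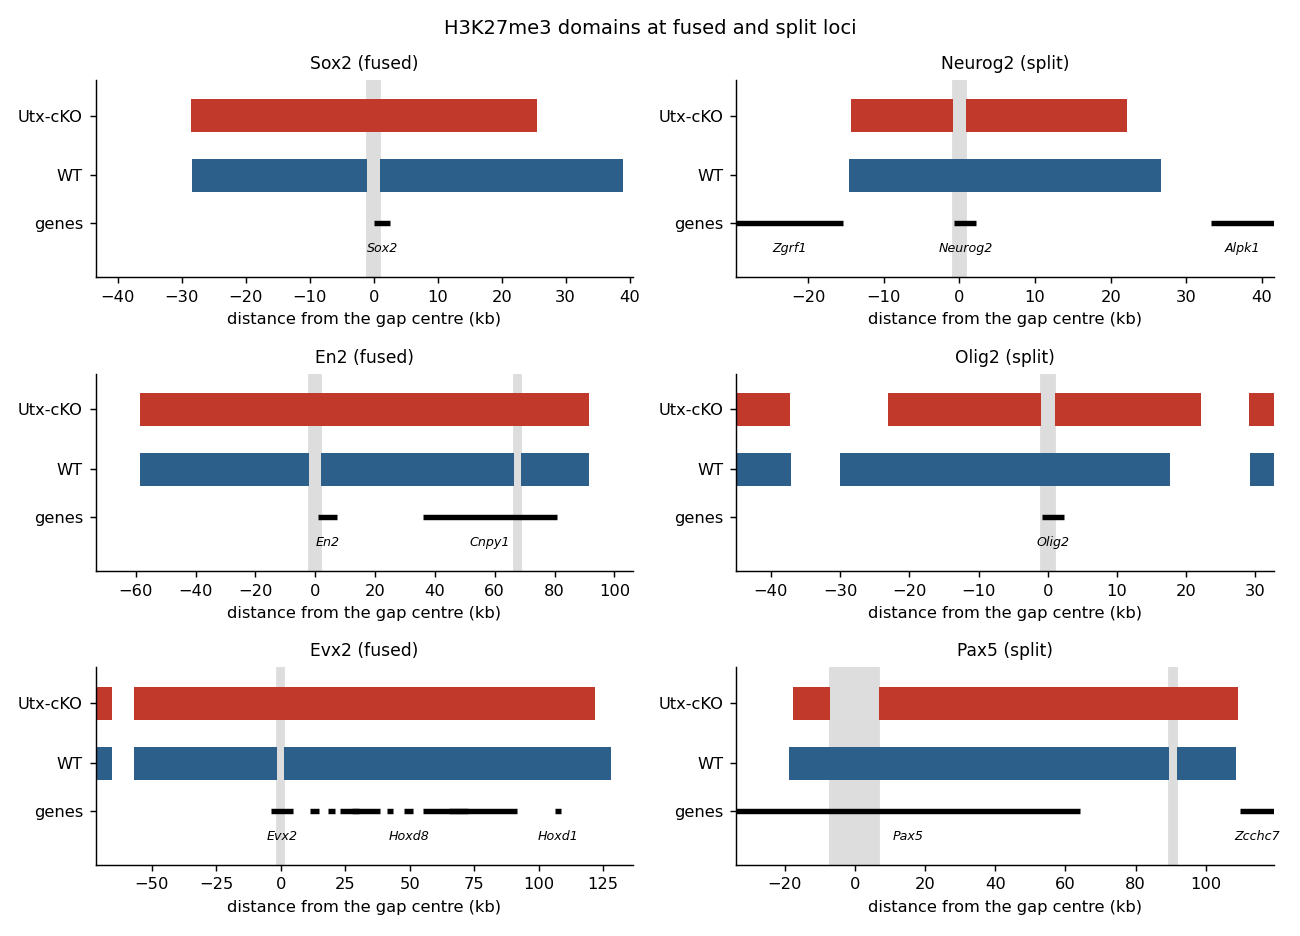
H3K27me3 domains (bars) of Utx-cKO and WT, with RefSeq genes below, against distance from the gap centre in kb at 3 fused loci (left) and 3 split loci (right); grey bands mark gaps. At Sox2 the gap is 2000 bp of WT only, and at Neurog2 it is 1700 bp of Utx-cKO only. The Neurog2 gap is shorter than any spacing in the WT list (1750 bp or more).

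Fused domains were 278 of 7033 autosomal Utx-cKO domains (3.95%, 95% interval 3.51 to 4.43), and split domains were 335 of 6126 autosomal WT domains (5.47%, 4.91 to 6.07). Most domains had a single counterpart, 5172 in Utx-cKO and 5050 in WT, while 1583 Utx-cKO and 741 WT domains had none. Among fused domains 255 covered 2 WT domains and 23 covered 3. Split domains covered 2 Utx-cKO domains in 304 cases and 3 in 31. The number of fused per split domain was 0.830 (0.705 to 0.976). It was 1.05 when neighbours closer than 5000 bp were first merged, so the order of the classes depends on how peaks were joined. The value also moved with the length of the lists, to 0.955 when both were cut to the same number of strongest autosomal peaks. These exact intervals cover counting error only, and neighbouring domains are not independent. On the X chromosome, by comparison, 183 of 1880 Utx-cKO domains (9.73%) and 219 of 1700 WT domains (12.9%) met the same criteria. Autosomal fused shares ran from 2.16% on chromosome 3 to 5.70% on chromosome 6, and split shares from 2.76% on chromosome 19 to 8.78% on chromosome 8.

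The rule is a threshold on overlap. The smallest overlap that made a member was 100 bp in both classes, and 6 fused and 7 split domains had a piece that overlapped by 1000 bp or less. Just outside, 73 Utx-cKO and 81 WT domains with a single counterpart had a further domain of the other list within 1000 bp. The nearest abutted, at 0 bp, in both classes.

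The 301 WT gaps inside fused domains had a median length of 5050 bp (quartiles 3000 and 8650, range 1750 to 27850). The 366 Utx-cKO gaps inside split domains had a median of 4450 bp (quartiles 2562.5 and 7887.5, range 1600 to 30000). Together the gaps made up 1.96 Mb, or 14.1%, of the fused domains and 2.19 Mb, or 14.4%, of the split domains. Gaps under 2.5 kb were 48 (15.9%) in the fused class and 84 (23.0%) in the split class, while 53 (17.6%) and 52 (14.2%) were 10 kb or longer. The shortest spacing of neighbouring peaks was itself 1600 bp in the Utx-cKO list and 1750 bp in the WT list. Of the split gaps 34 (9.29%) were shorter than any spacing in the WT list, and they lay in 34 domains, Neurog2, Foxl2 and Phc1 among them. Lengths on the X chromosome were higher, with medians of 6400 bp for 216 fused gaps and 5400 bp for 257 split gaps.

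**Figure D2:**
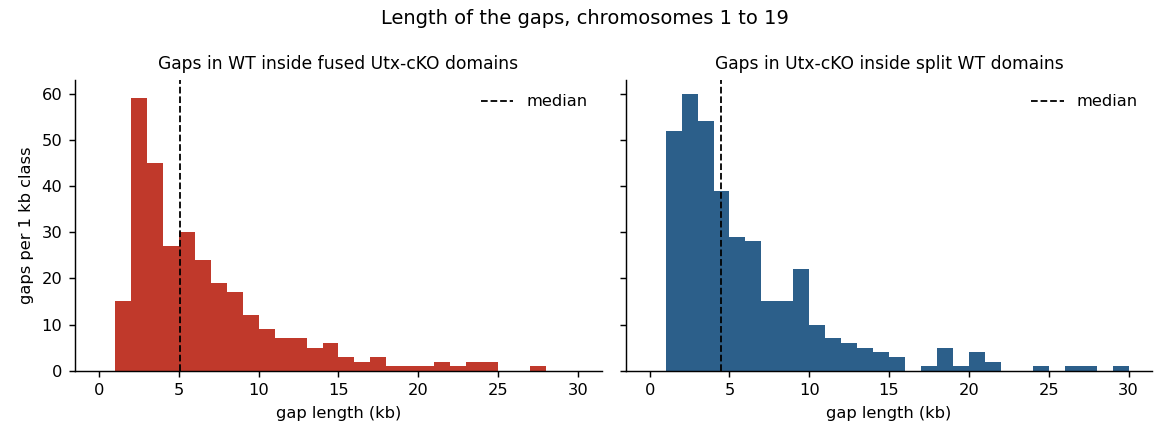
Number of autosomal gaps per 1 kb class of gap length (kb), for WT gaps inside fused Utx-cKO domains (left) and Utx-cKO gaps inside split WT domains (right); dashed lines are medians. The medians are 5050 bp and 4450 bp, and both distributions have a tail to about 30 kb.

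Short gaps were bridged more often than long ones in both directions. Of WT gaps under 2.5 kb, a Utx-cKO domain bridged 48 of 141 (34.0%, 26.3 to 42.5), and of Utx-cKO gaps of that length a WT domain bridged 84 of 216 (38.9%, 32.3 to 45.7). At 10 to 20 kb the shares were 44 of 608 (7.24%) for WT gaps and 42 of 776 (5.41%) for Utx-cKO gaps. Over all gaps up to 20 kb, Utx-cKO domains bridged 292 of 1542 WT gaps (18.9%, 17.0 to 21.0) and WT domains bridged 356 of 2003 Utx-cKO gaps (17.8%, 16.1 to 19.5). The Utx-cKO list held more gaps, and the bridged shares of the 2 directions had overlapping intervals in every length class.

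**Figure D3:**
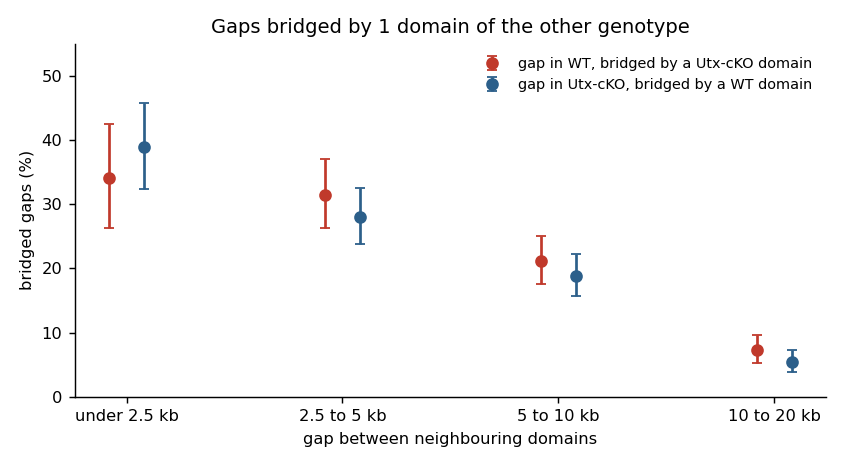
Share of gaps between neighbouring autosomal domains (%) that 1 domain of the other genotype bridged, by gap length, with 95% Clopper-Pearson intervals. The share was 34.0% (WT gaps) and 38.9% (Utx-cKO gaps) under 2.5 kb and 7.24% and 5.41% at 10 to 20 kb.

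Fused and split domains were wide and had a high total signal within their lists. Width is part of what the rule selects, since a wide domain can overlap more neighbours. Total signal sums coverage over the domain, so it rises with width. Fused domains had a median width of 44400 bp, against 15950 bp for Utx-cKO domains with 1 counterpart, and a median percentile of total signal of 90.8 against 57.1. Split domains had a median width of 40350 bp, against 16200 bp for WT domains with 1 counterpart, and a percentile of 85.5 against 51.7. Of Utx-cKO domains under 20 kb, 10 of 4848 (0.206%) were fused, against 29 of 53 (54.7%) at 80 kb and over. In WT, 19 of 3936 (0.483%) under 20 kb were split, against 26 of 56 (46.4%) at 80 kb and over.

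**Figure D4:**
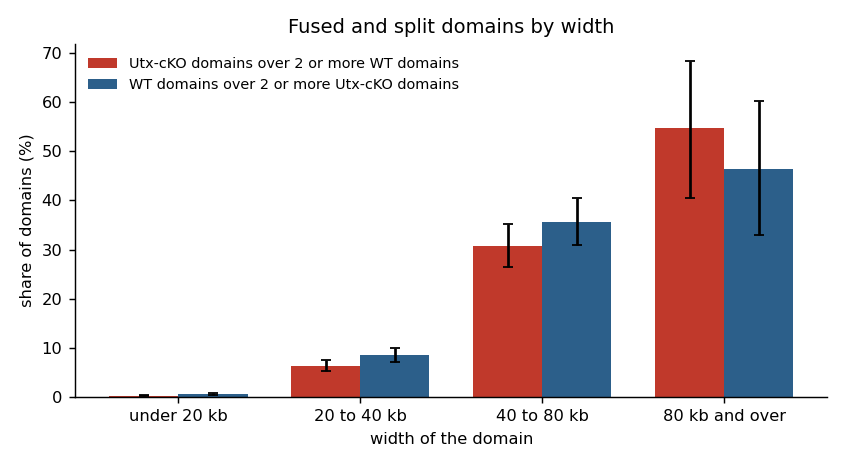
Share of domains (%) that were fused (Utx-cKO) or split (WT), by width of the domain, with 95% Clopper-Pearson intervals. The share is 0.206% and 0.483% under 20 kb and 54.7% and 46.4% at 80 kb and over.

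Within width classes the maxima ran differently, but the classes are coarse and width inside them was not equal. At 20 to 40 kb, median widths were 31750 bp (fused) and 31400 bp (split), against 25700 bp for domains with 1 counterpart in either list. At 40 to 80 kb they were 52875 against 49550 bp in Utx-cKO and 50300 against 50525 bp in WT. At 40 to 80 kb, fused domains had a median maximum of 38.5 against 37.6 for Utx-cKO domains with 1 counterpart, and split domains had 27.6 against 43.9 for WT domains with 1 counterpart. At 80 kb and over the medians were 44.4 against 69.3 in Utx-cKO and 34.9 against 60.9 in WT. At 20 to 40 kb they were 24.6 against 20.1 and 21.8 against 20.5. Members thus had the lower median maximum in both lists at 80 kb and over. Median total signal per bp was lower in split domains than in WT domains with 1 counterpart in every width class. For fused domains it was higher below 40 kb and lower above. At 40 to 80 kb it was 5.64 against 6.17 in Utx-cKO and 4.99 against 6.70 in WT.

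Pieces under a member were ordered by percentile of total signal, so the weakest ranks below the strongest by construction. Whether they differed more than other neighbouring domains was not tested. The weakest piece had a median percentile of 43.1 in the WT list (fused class) and 38.9 in the Utx-cKO list (split class), and the strongest had 80.9 and 77.3. A median of 80.3% of a fused and 80.9% of a split domain was covered by pieces, and the widest piece held a median of 62.6% and 62.7% of that covered length. The member's own maximum lay in a piece in 255 fused (91.7%) and 322 split domains (96.1%).

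The maximum lay inside the gap in 22 fused domains (7.91%, 5.03 to 11.7) and 12 split domains (3.58%, 1.86 to 6.17). Ihh, a hedgehog ligand, had a Utx-cKO maximum of 60.5 in a 3850 bp WT gap that held its start. The WT domains beside that gap had maxima of 46.5 and 65.4, on a scale not known to be shared with Utx-cKO. Gdf7, a BMP-family ligand, had a Utx-cKO maximum of 57.8 in a 3800 bp WT gap. Fgf9, a fibroblast growth factor, had 51.1 in a 5750 bp WT gap. Six4, a homeobox factor, had 75.7 in a 3000 bp WT gap, and Pcdh10, a protocadherin, had 33.2 in 4100 bp. Nog, a secreted BMP antagonist, had an end in such a gap of 4950 bp with a Utx-cKO maximum of 43.9. These genes were chosen after their values were seen. In the split class, Scube3, a secreted cell-surface glycoprotein, had its start in a 2000 bp Utx-cKO gap that held the WT maximum of 26.5.

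The 10 fused domains with the highest total signal contained Gbx2, Sim1, Mfsd6l, Otx2, the HoxD genes with Evx2, Sox2, Pax5, En2, Tbx3, and HoxA genes with Evx1. The Utx-cKO domain over the HoxD cluster and Evx2, a homeobox gene beside it, was 178400 bp wide and ranked at percentile 99.99. WT had 2 domains there with a 2550 bp gap (chr2:74655401-74657950) inside Evx2. The domain at Evx1 beside the HoxA cluster was 107700 bp wide, and its 2900 bp WT gap (chr6:52314051-52316950) lay within Evx1. At En2, a homeobox gene of the midbrain and hindbrain, 1 Utx-cKO domain of 149850 bp covered 3 WT domains, with gaps of 4050 bp at En2 and 2200 bp inside Cnpy1. Foxa2 and Foxa1, forkhead factors of endoderm, had an annotated start in WT gaps of 1800 bp and 3750 bp, while both outer ends of each gene lay outside the gap. The flanking WT domains at Foxa1 both had a maximum of 79.2, and the Utx-cKO domain had 75.2. The lists are not known to share a scale, so these maxima are not compared. Lhx2, a LIM homeobox factor of forebrain and hair follicle, lay in a 76000 bp Utx-cKO domain over 3 WT domains, with an annotated start, but no outer end of the gene, in a 3600 bp gap. Ptf1a, a pancreatic and neural factor, had its start in a gap of 9750 bp, Emx1, a cortical homeobox gene, in 5750 bp, and Vax1, of the ventral forebrain and eye, in 5300 bp.

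The widest fused gaps lay mostly between genes or inside them. The longest, 27850 bp on chromosome 4, lay in the domain of the forkhead gene Foxd2 and held no protein-coding gene. Dlgap4, a scaffold protein of synapses, contained one of 24400 bp, and Col13a1, a transmembrane collagen gene, had its start in one of 19800 bp. The gap at Tbx1, a T-box factor of pharyngeal development, was 22150 bp and reached into Gnb1l. Osr2, Lhx5, Scrt2, Rnf220 and Acoxl also lay in Utx-cKO domains over 3 WT domains.

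A Utx-cKO gap lay at a start in 42 cases of the split class, at genes of many kinds, of which listed and named ones follow. Foxl2, a forkhead factor of the ovary, had a gap of 1700 bp (chr9:98955301-98957000) in a WT domain of 47700 bp at percentile 99.2. The Utx-cKO maxima beside it were 70.9 and 85.4. Olig2, a factor of oligodendrocytes and motor neurons, had a gap of 1950 bp, Foxd3, a neural crest factor, 1750 bp, Prox1, of lymphatic endothelium, 1700 bp, and Pou4f2, of retinal ganglion cells, 1650 bp. Sall1, a zinc-finger factor of kidney development, had one annotated start, but no outer end, in a gap of 2500 bp, and Hmga2, a chromatin architectural protein, in one of 1900 bp. Phc1, a subunit of Polycomb repressive complex 1, had its start in a gap of 1600 bp, the shortest length and shared with other split gaps, within a WT domain of 43500 bp and maximum 30.6. Kcnc4, a voltage-gated potassium channel gene, had a start in a gap of 1650 bp. The gaps at Foxl2, Prox1, Pou4f2, Phc1 and Kcnc4 were shorter than any spacing in the WT list (1750 bp or more). Dct, an enzyme of melanin synthesis, had an end in a 7950 bp gap between Utx-cKO domains at percentiles 22.7 and 9.11.

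Other split domains were divided away from gene starts. The widest split domain, 190750 bp on chromosome 11, contained Tbx4, a T-box factor of the hindlimb, and covered 3 Utx-cKO domains with gaps of 4700 bp and 6650 bp. The domain of Rhcg, an ammonium transporter gene, was 147400 bp and covered 3, with gaps of 4550 bp and 4300 bp. The widest split gap, 30000 bp on chromosome 6, lay in the domain of Atoh8, a basic helix-loop-helix factor, and held no protein-coding gene. That WT domain ended at 72275150 and the Utx-cKO domain beyond the gap began at 72274701. This member thus rests on an overlap of under 1000 bp and is lost when 1000 bp is required. Slc35f3 contained one of 24200 bp.

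Fused and split domains could lie at the same place. Of 550 loci with a member, where a locus joins all domains of both lists that overlap in a chain, 219 held fused domains only, 277 split domains only and 54 both. A direct overlap of a fused and a split domain occurred in 63 pairs. Pax5, a paired-box factor of B cells, was such a pair: the Utx-cKO domain chr4:44653651-44755750 and the WT domain chr4:44627801-44736100 were offset, with a 14000 bp Utx-cKO gap at one side and a 2350 bp WT gap at the other. Pax3, of neural crest and muscle, had a 6300 bp WT gap and a 1650 bp Utx-cKO gap (chr1:78154501-78156150), the latter shorter than any spacing in the WT list. Among other developmental transcription factor genes, Lhx2, Dmbx1 and Onecut1 overlapped both domains of a pair. Lmx1a, Zic2 and Gbx2 lay in the fused domain of a pair but outside the split one, and Foxb1 the reverse. Many other pairs held genes of other kinds, such as Nfasc, Nav1, Galnt16 and Acoxl, or no named gene.

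Protein-coding genes overlapped 156 of 301 fused gaps (51.8%) and 173 of 366 split gaps (47.3%). A gene end lay in 50 fused gaps (16.6%, 12.6 to 21.3) and 45 split gaps (12.3%, 9.11 to 16.1). An annotated start lay in 31 fused gaps (10.3%) and 42 split gaps (11.5%). Starts were known for 79.6% of autosomal protein-coding genes, but for 70.2% of those with an end in a fused gap and 78.7% in a split gap. Of unbridged neighbour gaps up to 20 kb, 15.4% of 1250 in WT and 15.1% of 1647 in Utx-cKO held a gene end. A start lay in 9.36% and 9.35% of these. The shares in fused and split gaps were near these values, with overlapping intervals. Per megabase, fused gaps held 16.3 starts (11.2 to 23.0), against 10.003 (8.23 to 12.05) in the covered parts of the same domains. Split gaps held 19.2 (13.8 to 26.0) against 8.12 (6.596 to 9.90). Without the 34 split gaps shorter than 1750 bp, the split value was 14.6 (9.89 to 20.7). Neighbour gaps that were not bridged held 10.2 per megabase in WT and 10.5 in Utx-cKO.

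Gap length moved with the starts, so gaps were also set beside unbridged ones of like length. Among gaps under 2.5 kb, 4 of 48 bridged WT gaps (8.33%) held a start, against 19 of 93 unbridged ones (20.4%). A gene end, which needs no tabulated promoter, lay in 7 (14.6%) against 21 (22.6%) of them. Starts without a tabulated promoter count as absent, so part of the contrast in starts may be missing entries. For Utx-cKO gaps of that length, starts lay in 20 of 84 (23.8%) against 31 of 132 (23.5%). Gene ends lay in 20 (23.8%) against 36 (27.3%). At 2.5 to 5 kb the shares with a start were 14.3% against 10.8% for WT gaps and 8.26% against 5.16% for Utx-cKO gaps. The intervals of bridged and unbridged gaps overlapped in every length class. Where both flanking pieces ranked at percentile 75 or higher, 19.2% of 52 fused gaps and 19.3% of 57 split gaps held a start, against 7.23% of 83 and 7.14% of 112 where the weaker flank ranked under 25. The intervals overlapped, at 9.63 to 32.5 against 2.70 to 15.1 in the fused class and 10.05 to 31.9 against 3.13 to 13.6 in the split class. These strong-flank gaps were also shorter, with medians of 3900 bp and 3400 bp against 5600 bp and 5200 bp.

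**Figure D5:**
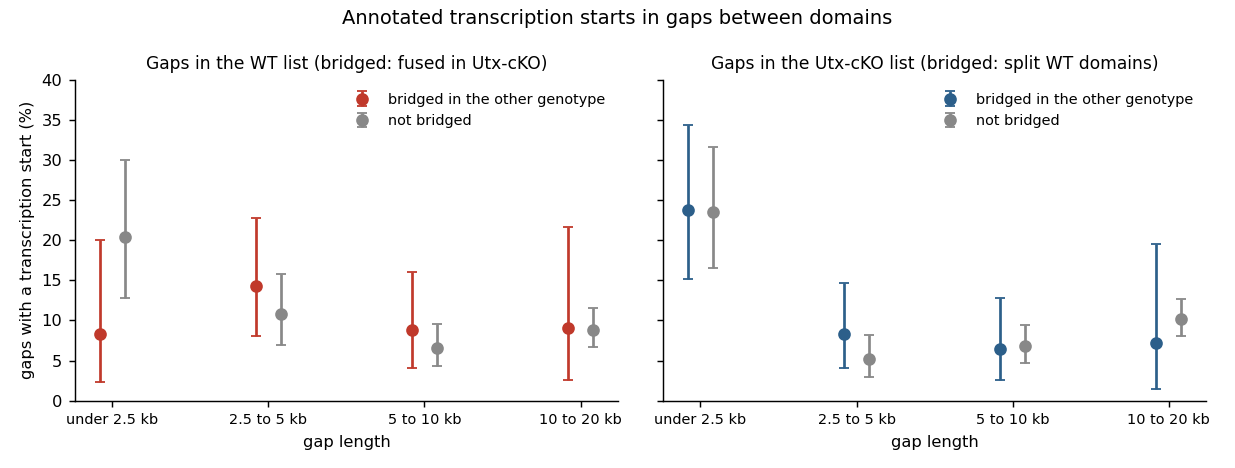
Share of gaps (%) with an annotated transcription start, by gap length, for gaps in the WT list (left) and the Utx-cKO list (right), bridged in the other genotype or not, with 95% Clopper-Pearson intervals. Under 2.5 kb the shares are 8.33% against 20.4% on the left and 23.8% against 23.5% on the right. Starts without a tabulated promoter are not counted.

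Gene lists were read against all 20665 autosomal protein-coding genes, of which 57 (0.276%) had an end in a fused gap and 47 (0.227%) in a split gap, and 269 (1.30%) and 272 (1.32%) overlapped a member. Developmental transcription factors had an end in a fused gap in 10 of 166 cases (Pax3, Lmx1a, Ptf1a, Sox2, En2, Emx1, Otx1, Zic2, Tbx1, Vax1) and in a split gap in 6 (Neurog2, Foxe1, Foxd3, Pou4f2, Foxl2, Olig2). Since many of these genes lie in H3K27me3 domains at all, the count among those with a domain is the closer comparison. Of 147 with a Utx-cKO domain 33 lay in a fused one (22.4%, 15.98 to 30.1), and of 147 with a WT domain 18 lay in a split one (12.2%, 7.42 to 18.7). Over all genes with a domain these shares were 8.53% (269 of 3153) and 9.32% (272 of 2919). Gene lists hold clustered genes, and width of the domain was not matched here.

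Hox genes, which pattern the body axis, lay in fused domains in 15 of 29 cases and in split ones in 0 of 26. These 15 genes belong to 3 fused domains, 9 in HoxD, 4 in HoxA and 2 in HoxC, so they are not separate cases. Ligands and antagonists of the BMP, TGF-beta, FGF and hedgehog pathways lay in fused domains in 6 of 27 cases (Ihh, Nog, Gdf7, Fst, Fgf9, Fgf1), with 4 ends in gaps, and in a split one in 1 of 27 (Fgf3), with 0. Fst, an activin antagonist, had a WT gap of 10000 bp. Potassium channel genes, which set membrane potential, lay in fused domains in 8 of 45 cases and in split ones in 4 of 43. Kcnk3 had an end in a 5650 bp WT gap, and Kcnc4 had one in a Utx-cKO gap of 1650 bp. Of Wnt ligands and antagonists, 1 of 17 (Wnt8b) lay in a fused domain and 0 of 14 in a split one.

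Genes of the epidermis with a domain were few, so their counts are read against the 8.53% (fused) and 9.32% (split) of all genes with a domain with wide error. Epidermal differentiation genes lay in fused domains in 0 of 11 cases (upper bound 28.5%) and in split ones in 0 of 7 (41.0%), and basal keratinocyte and adhesion genes in 0 of 3 (70.8%) and 0 of 2 (84.2%). These bounds lie above the shares of all genes. Hair follicle and sebaceous gland genes did so in 3 of 15 (Lhx2, Edar, Mc5r; 4.33% to 48.1%) and 2 of 14 (Lhx2, Cd34; 1.78% to 42.8%), intervals that contain those shares. Among markers of other cells, fibroblast and endothelium genes gave 1 of 9 (Prrx1) and 0 of 10, melanocyte genes 0 of 3 and 1 of 3 (Dct), immune genes 0 of 4 and 0 of 4, and neuron genes 2 of 14 (Npy, Rbfox3) and 1 of 12 (Nefl). The share of these cells in the suspensions was not tested. Polycomb, UTX and COMPASS genes gave 0 of 2 and 1 of 1 (Phc1), cadherin and axon guidance genes 4 of 34 and 2 of 31, and imprinted genes 1 of 18 (Kcnq1) and 2 of 17 (Mest, Slc22a3).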

How the data were processed

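The values are peak lists that the authors deposited, each for a genotype. Per the file headers, SEACR (spelt SECAR there) was run on data merged within a group. The total signal that the authors deposited is the coverage summed over a peak called on those merged data. Columns carry no names and were read in the caller's usual output order. The deposited maximum signal, the highest coverage in the peak, was called by the authors on the same merged data and is treated as the peak's score. The sources used here do not give their scale or normalization, nor the mode and threshold of the caller. Depth is unknown. Tools named in the submitters' processing notes are deepTools, bedtools 2.27.1, SAMtools 1.9 and Bowtie2 2.3.4.3, and builds are mm10, GRCm38 and sacCer3.

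Overlaps, gaps and percentiles were computed with Python 3.11.15 (pandas 2.3.3, numpy 2.4.6, scipy 1.17.1, networkx 3.6.1) and checked against bedtools 2.31.1 and on simulated lists. Loci are chains of overlapping peaks. Gene spans are those of RefSeq for GRCm38.p6, matching the lists' build. Annotated starts and strands come from its promoter table. Named loci are, per class, the 10 widest gaps, the 10 strongest domains, the 10 with most pieces, and up to 4 members of each of 17 gene lists with an end in a gap, without predicted models; genes named outside this rule were chosen after their values were seen. Members and lists were chosen with earlier results of these data known. Intervals are exact Clopper-Pearson for shares and exact Poisson for densities, at 95%. Alternatives were merging neighbours, overlap minima, signal floors and gene definitions.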

Additional observations from a re-analysis of the deposited data

How the results depend on the processing

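Of 81 alternatives, 67 left a value within 1.5 times (counts) or within its interval, 13 moved it and 1 reversed it. Some of the 67 could not have differed. Merging neighbours closer than 1000 bp joined no peaks, as the shortest spacing was 1600 bp in Utx-cKO and 1750 bp in WT. Removing peaks under 1000 bp reached no member or piece. The narrowest member was 12600 bp (fused) and 10850 bp (split), and the narrowest piece 3100 bp and 3450 bp. These 2 settings therefore say nothing about robustness. The reversed value was the number of fused per split domain, 1.05 when neighbours closer than 5000 bp were merged, with 246 fused and 235 split domains, against 0.830 as reported. It was 0.979 after a common floor of total signal, which assumes a scale shared by the lists that the sources used here do not give. The floor removed 1037 Utx-cKO and 0 WT autosomal peaks and left 284 split domains. Keeping the same number of strongest autosomal peaks in each list, which needs no shared scale, gave 0.955 with 291 split domains. Merging neighbours closer than 1750 bp, an alternative chosen after seeing the data, gave 0.928. Merging below 2500 bp moved the median gap to 5750 bp (fused) and 5700 bp (split), and merging below 5000 bp to 8750 bp and 8800 bp, as the shorter gaps are removed by construction. With the 2500 bp merge, 8.81% of split gaps held a gene end. Among the stronger 50% of peaks, 123 domains were fused and 136 split, and the median split gap was 3650 bp. Counting all annotated genes, 28.6% of fused and 24.0% of split gaps held a gene end, and 22.9% and 18.03% had a protein-coding end within 2000 bp. The cause of the other changes was not tested. No paired analysis was possible because each list pools its animals, which also precludes leaving out a replicate. Libraries, IgG and depth could not be weighed, and the smallest spacing in each list limits which gaps can be seen.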

Other observations

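One annotated microRNA hairpin, Mir6362, lay in a gap, a fused one of 12050 bp on chromosome 16.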
